A study of Mus musculus with 6 samples.

Results

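This account covers 10 genes for subunits of 2 chromatin remodelling complexes, esBAF and NuRD, found by name among the 48440 genes of the count table. Smarca4, Smarcc1, Arid1a, Dpf2 and Brd9 belong to the BAF family of complexes, and Chd4, Mbd3, Mta1, Mta2 and Gatad2a to NuRD. All 10 were present in the table and all 10 passed the filter on low counts, with between 619 and 19846 reads per gene and library. The 3 Tet1 knockout (KO) libraries were from clones 14, 30 and 33 (replicates 1 to 3), with the genotype wt/wt;GFP/wt and an added Tet1 Cas9 mut/mut. The 3 non-targeted (NT) libraries were from clones 49, 51 and 52 (replicates 1 to 3), with the genotype wt/wt;GFP/wt. All 6 are clonal lines of the mouse induced pluripotent stem cell (iPSC) line iPSC34.3, labelled male, from 1 sequencing batch. Their strain label joins B6- Tet1tm1Kohx and B6;CBA-Tg(Pou5f1-EGFP)2Mnn/J, and its last part names a Pou5f1-EGFP reporter transgene. Per the labels' protocols the cells received Cas9 protein, a Tet1 guide RNA, an ssODN (a single-stranded DNA oligonucleotide) and 12 h of an agent given as HRD enhancer, after 14 passages, and picked colonies spent 4 further passages in KSR medium and were then expanded on mouse embryonic fibroblast feeders, from which the cells were taken off before RNA extraction. The labels give the non-targeted clones the same text, so which of these agents they received is not clear. Each library is 1 clone, so p-values reflect the spread among clones of iPSC34.3.

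ATP-dependent remodellers slide, evict or restructure nucleosomes. Smarca4 (BRG1) is the ATPase of esBAF, the form of BAF found in mouse embryonic stem cells, which contains the scaffold Smarcc1 (BAF155) and largely lacks the related Smarcc2 (BAF170) and the alternative ATPase Smarca2 (BRM). NuRD joins the remodelling ATPase Chd4 to histone deacetylases, and in embryonic stem cells it tempers pluripotency genes and is needed for orderly exit from the pluripotent state. Tet1, the edited gene, encodes an oxidase of 5-methylcytosine whose CXXC domain binds DNA at CpG sites.

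Tet1 RNA was at 365, 231 and 288 CPM (a gene's reads scaled to the TMM-adjusted library size) in the KO clones, against 1158, 966 and 1034 CPM in the NT clones, so no library went against its label. The log2 fold change was -1.84 ± 0.16 (SE; edgeR adjusted p = 0.0703; DESeq2 adjusted p = 9.06e-20). Where the edit lies in Tet1 is not given in the labels. Across the 14664 tested genes, edgeR's quasi-likelihood test with Benjamini-Hochberg adjustment called 0 genes at an adjusted p of 0.05 (percent called: 0), with 24.8% at an unadjusted p under 0.05, while DESeq2 called 9.12% of the genes to which it gave an adjusted p (5.77% higher and 3.35% lower in the knockout) and limma voom 0.00682%. Pluripotent cell markers were read in every library: none of the 12 was at 0, and their summed level was 5483, 4199 and 3714 CPM in KO replicates 1 to 3, against 5201 to 5736 CPM in the NT clones. Markers of fibroblasts, the cell type of the feeders, were above 0 in log2 fold change for 31 of 32 tested, of which edgeR called 0 and DESeq2 19, with summed levels of 1763, 2114 and 3451 CPM in KO replicates 1 to 3, against 1364 to 1554 CPM in the NT clones. Of the 35 fibroblast markers Fap was at 0 in NT replicates 1 and 3, and no other was at 0 in any library. In bulk libraries such as these, fewer cells of a type and less RNA per cell cannot be told apart.

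Some RefSeq promoter windows (GRCm38.p6, 250 bases before to 50 after a start site) are shown because the results below turn on these genes: Smarcc1 and Smarcc2 had log2 differences of opposite sign, and Chd4 stood apart from its chromosomal neighbours. Every CpG is in capitals, the dinucleotide that Tet1 and the DNA methyltransferases act on. No methylation was measured here, so the windows describe sequence only.
Smarcc1, chr9:110131774-110132073, plus strand: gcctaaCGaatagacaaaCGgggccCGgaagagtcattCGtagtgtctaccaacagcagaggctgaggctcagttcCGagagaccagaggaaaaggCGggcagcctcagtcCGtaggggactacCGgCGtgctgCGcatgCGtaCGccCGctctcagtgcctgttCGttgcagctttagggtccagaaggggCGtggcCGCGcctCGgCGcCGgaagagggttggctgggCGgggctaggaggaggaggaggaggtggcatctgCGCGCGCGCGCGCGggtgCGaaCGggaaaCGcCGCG
Smarcc2, chr10:128458986-128459285, plus strand: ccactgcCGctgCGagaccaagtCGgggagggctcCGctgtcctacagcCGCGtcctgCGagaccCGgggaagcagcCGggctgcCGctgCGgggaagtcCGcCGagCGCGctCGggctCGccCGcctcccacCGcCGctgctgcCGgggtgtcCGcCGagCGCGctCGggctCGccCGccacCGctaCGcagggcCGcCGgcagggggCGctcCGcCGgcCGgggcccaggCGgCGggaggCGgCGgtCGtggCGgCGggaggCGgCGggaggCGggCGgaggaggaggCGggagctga
Chd4, chr6:125095731-125096030, plus strand: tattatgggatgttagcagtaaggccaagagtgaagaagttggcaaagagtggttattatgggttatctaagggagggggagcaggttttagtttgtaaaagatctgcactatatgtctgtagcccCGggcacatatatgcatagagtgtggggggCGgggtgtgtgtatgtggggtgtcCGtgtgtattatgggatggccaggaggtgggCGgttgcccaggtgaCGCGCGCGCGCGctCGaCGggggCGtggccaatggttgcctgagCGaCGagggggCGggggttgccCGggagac
These windows hold 33, 48 and 17 CpGs. All 10 genes matched the promoter table, with 14 windows in all that hold between 17 (Chd4) and 50 (Mta1) CpGs. The windows of all 10 genes are CpG-rich beside the table: the median over its 32851 windows of 300 bases is 7, and 94.6% of them hold at least 1 CpG on either strand, a CpG reading the same on both. Fewer CpGs than in the Smarcc1 window were found in 91.4% of all windows, fewer than in that of Smarcc2 in 98.8% and fewer than in the printed window of Chd4 in 68.6%. A second RefSeq window of Chd4, chr6:125095913-125096212, holds 29 CpGs, more than 87.1% of all windows. The RefSeq start of Smarcc1 lies inside the counted gene, which begins upstream of it in the authors' annotation.

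The 10 subunits differed little between the KO and NT clones, by 0.808-fold (Smarcc1) to 1.32-fold (Mta1). None was called by edgeR, where 0% of all genes were called, by DESeq2 (9.12% of all genes) or by limma voom. Their log2 fold changes (KO minus NT) ran from -0.31 to 0.40, 5 above and 5 below 0, with a median of -0.03 beside 0.00 over all tested genes (-0.075 without KO replicate 1 and 0.022 without KO replicate 3). The median absolute change was 0.12 among the 10 and 0.24 over all tested genes. In the top 10% of tested genes by mean level, which holds Smarca4, Smarcc1, Arid1a, Chd4, Mbd3, Mta2 and Gatad2a, the median absolute change was 0.12 too. Of these genes Smarcc1 was at 0.31 and the rest between 0.07 and 0.16. In the tenth by level that holds Dpf2 (0.09) and Mta1 (0.40) the median was 0.14, and in that of Brd9 (0.01) it was 0.17. The groups did not overlap for Smarcc1, lower in the KO clones, and Mta2, higher in them, 1 gene in each direction, where 14.7% of all tested genes were lower and 14.8% higher in this way.

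**Figure D1:**
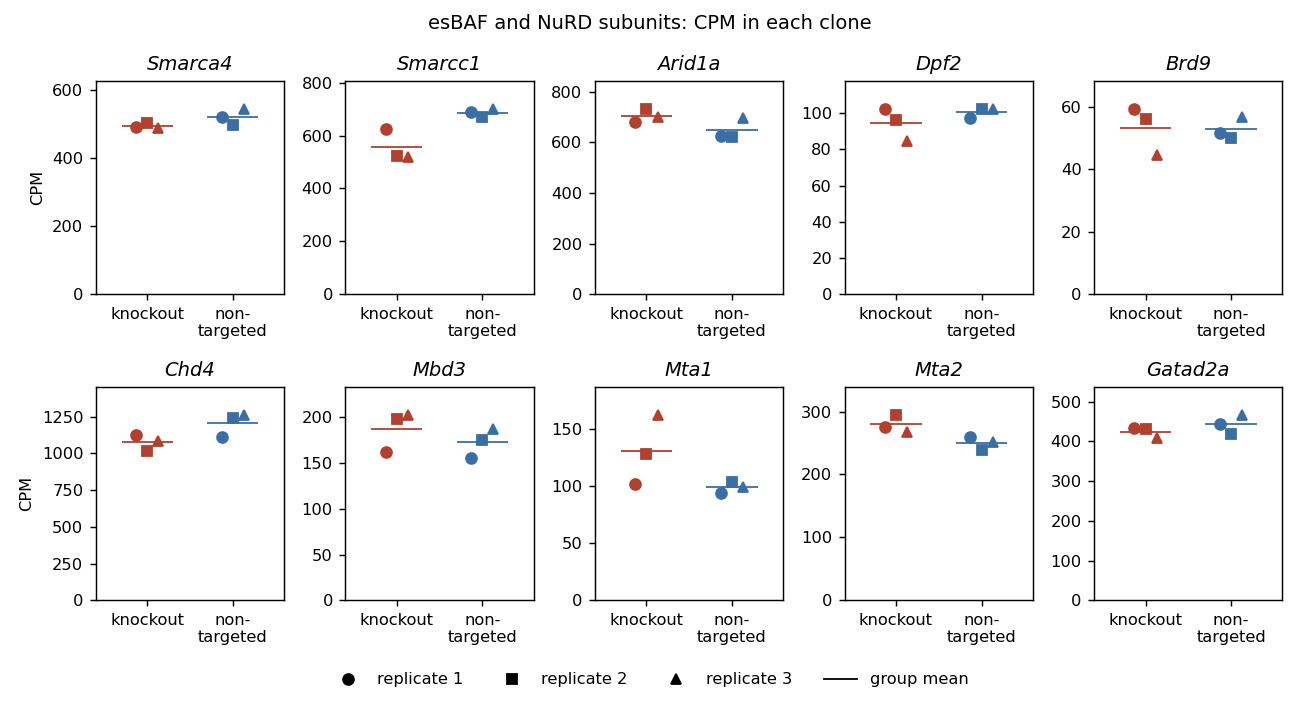
CPM (vertical axes, from 0) of each of the 10 subunits in the 3 knockout (red, left) and 3 NT clones (blue, right); point shapes mark replicates and lines the group means. The groups are apart for Smarcc1 (519 to 625 CPM in KO clones against 672 to 701 CPM in NT clones) and for Mta2 (268 to 295 CPM in KO clones against 239 to 260 CPM in NT clones), and overlap for the other 8 genes.

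Levels between genes are set side by side per kilobase of the longest coding transcript (CPM per kb, GENCODE M21; mean and SD of 3 clones). Chd4 was highest, at 161 ± 8.56 in the KO clones and 180 ± 11.9 in the NT clones. Smarcc1 was at 96.1 ± 10.5 in the KO clones and 119 ± 2.55 in the NT clones, and Mbd3 at 113 ± 13.3 in the KO clones and 104 ± 9.78 in the NT clones. Smarcc1 was the higher of the pair in the NT clones and Mbd3 in the KO clones, where the gap was about as large as their SDs. Mta2, Arid1a, Gatad2a and Smarca4 lay between 77.7 and 89.2 in the KO clones and between 79.0 and 88.5 in the NT clones. In the KO clones Mta2 (89.2 ± 4.35) lay above Smarca4 (77.7 ± 1.16) by more than their SDs. Mta1 (46.3 ± 10.8 in the KO clones and 35.1 ± 1.69 in the NT clones), Dpf2 (28.5 ± 2.73 in the KO clones and 30.3 ± 0.869 in the NT clones) and Brd9 (21.9 ± 3.20 in the KO clones and 21.7 ± 1.44 in the NT clones) were lowest. This order depends on the length used, since reads in introns were counted too. Per kilobase of the counted gene, in the NT clones, Mbd3 was at 24.6 and Smarcc1 at 5.61, and Dpf2, at 6.09, lay above Smarca4 (5.91), Smarcc1 and Gatad2a (4.96), while Chd4 was again highest (34.8).

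Among the esBAF genes, the ATPase gene Smarca4 (chromosome 9, 21616169 to 21704230, GRCm38) had 493, 504 and 490 CPM in KO clones, against 520, 497 and 545 CPM in the NT clones. The groups overlapped, and the log2 fold change was -0.07 ± 0.06 (SE; edgeR adjusted p = 0.504), with a 95% interval from -0.22 to 0.08, that is from 0.860-fold to 1.05-fold. Arid1a, the large DNA-binding subunit of canonical BAF, had 682, 732 and 701 CPM in KO clones, against 626, 621 and 695 CPM in the NT clones. NT replicate 3 lay within the KO range, and the log2 fold change was 0.12 ± 0.07 (edgeR adjusted p = 0.302; 95% interval -0.04 to 0.29).

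Smarcc1, the scaffold around which BAF assembles (chromosome 9, 110117708 to 110240178), had the largest log2 fold change of the 5 BAF genes, below 0. It had 625, 521 and 519 CPM in KO clones, against 689, 672 and 701 CPM in the NT clones. All 3 KO clones were below all NT clones, and KO replicate 1 was the nearest to them. The log2 fold change was -0.31 ± 0.09 (95% interval -0.51 to -0.11), a mean of 555 ± 60.3 CPM in KO clones and 687 ± 14.7 CPM in the NT clones (SD, n = 3 each), with an unadjusted p of 0.00806 by edgeR and adjusted p = 0.123 (DESeq2 adjusted p = 0.0610). The difference did not pass the threshold with all libraries. Without KO replicate 1 it passed in edgeR, at -0.41 (adjusted p = 0.00314), in a comparison in which 29.1% of all genes were called (15.1% higher and 14% lower).

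Dpf2, a subunit with paired PHD fingers that read acetylated histones, and Brd9, a bromodomain protein of the non-canonical BAF complex, were the least abundant of the BAF genes in CPM. Dpf2 had 102, 96.1 and 84.6 CPM in KO clones, against 97.2, 102 and 102 CPM in the NT clones. Brd9 had 59.3, 56.0 and 44.5 CPM in KO clones, against 51.7, 49.97 and 56.7 CPM in the NT clones. For both genes KO replicate 3 was the lowest of the 6 libraries. KO replicate 1 was the highest for Brd9 and about level with the highest NT clones for Dpf2, so the groups overlapped. The log2 fold changes were -0.09 ± 0.09 for Dpf2 and 0.01 ± 0.13 for Brd9 (edgeR adjusted p = 0.552 and 0.959), and the 95% interval of Brd9 ran from -0.28 to 0.31.

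Among the NuRD genes, Mta1 differed most and was also the most uneven between KO clones. The MTA proteins form the dimeric core of NuRD on which the deacetylases HDAC1 and HDAC2 are held. Mta1 had 102, 128 and 163 CPM in KO clones, against 94.1, 104 and 99.8 CPM in the NT clones. Replicate 1 of the KO was inside the NT range, and replicates 2 and 3 lay above it. The log2 fold change was 0.40 ± 0.16 (95% interval 0.03 to 0.77; unadjusted p = 0.0383 and adjusted p = 0.179 by edgeR; DESeq2 adjusted p = 0.155). It was 0.21 without KO replicate 3, and without KO replicate 1 it was 0.55 and passed (adjusted p = 0.00848). The fibroblast markers were likewise highest in KO replicate 3, with list medians of 0.60, 0.83 and 1.91 on the log2 scale relative to the non-targeted mean in KO replicates 1 to 3, and the medians of the pluripotent cell markers were -0.06, -0.39 and -0.52. The part of either in the Mta1 values was not tested.

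Mta2, the other MTA protein among the 10, had 276, 295 and 268 CPM in KO clones, against 260, 239 and 251 CPM in the NT clones. Its groups did not overlap, though the lowest KO and the highest NT clone were close, and the log2 fold change was 0.16 ± 0.07 (edgeR adjusted p = 0.207; 95% interval -0.00 to 0.33). Mbd3, a methyl-CpG-binding family member that in mammals has lost most of its preference for methylated DNA, had 162, 198 and 203 CPM in KO clones, against 155, 175 and 188 CPM in the NT clones. The groups overlapped, with a log2 fold change of 0.12 ± 0.11 (edgeR adjusted p = 0.528) that was 0.043 without NT replicate 1 and 0.21 without KO replicate 1. Gatad2a, which bridges the MBD protein and the Chd4 ATPase, had 432, 430 and 408 CPM in KO clones, against 444, 420 and 466 CPM in the NT clones. Its log2 fold change was -0.07 ± 0.07 (edgeR adjusted p = 0.564), with a 95% interval from 0.856-fold to 1.07-fold.

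Chd4, the NuRD ATPase, had the highest CPM of the 10 genes, with 1129, 1015 and 1083 CPM in KO clones, against 1114, 1238 and 1262 CPM in the NT clones. KO replicate 1 lay above NT replicate 1, and replicates 2 and 3 lay below every NT clone. The log2 fold change was -0.16 ± 0.07 (95% interval -0.34 to 0.01; edgeR adjusted p = 0.218).

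Chd4 lies on chromosome 6 (125095981 to 125130591), among genes whose levels were far lower in KO replicates 2 and 3 than its own. Values here are log2 CPM relative to the mean of the NT clones. Over the 20 nearest tested genes with a mean log2 CPM above 4, 10 on each side (124712336 to 127109557), the median was -0.05, -1.11 and -1.10 in KO replicates 1 to 3, against -0.01, -0.05 and 0.09 in NT replicates 1 to 3. Chd4 itself was at -0.09, -0.25 and -0.15 in KO replicates 1 to 3, against -0.11, 0.04 and 0.07 in the NT clones. In KO replicates 2 and 3 Chd4 thus stood 0.87 and 0.95 above the median of its neighbours, and in KO replicate 1 it stood at -0.04 relative to them. The corresponding values in the NT clones were -0.10, 0.10 and -0.03.

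In both KO replicates 2 and 3, 19 of the 20 neighbours were below Chd4. This count was not particular to them: it was 20 in NT replicate 2, where the lowest neighbour was at -0.17. It was 9 in KO replicate 1, 2 in NT replicate 1 and 8 in NT replicate 3. The adjoining genes on the proximal side were Zfp384, Pianp and Cops7a, at -0.96, -1.11 and -0.83 in KO replicate 2 and -1.08, -1.37 and -0.96 in KO replicate 3. On the distal side Nop2, a ribosomal RNA methyltransferase whose gene begins shortly after the end of Chd4, was at -0.89 and -1.04 in KO replicates 2 and 3, and the condensin subunit gene Ncapd2 at -1.12 and -1.17. The glycolytic gene Gapdh was at -0.52 and -0.54, a level that is uncertain because the gene has many near-identical processed copies. The exception above Chd4 was Tnfrsf1a, a tumour necrosis factor receptor named after its values were seen, at 0.75, 0.52 and 1.08 in KO replicates 1 to 3. With 5 neighbours on each side, Chd4 stood 0.68 and 0.85 above their median in KO replicates 2 and 3. These differences between Chd4 and its neighbours are a description, with no test.

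**Figure D2:**
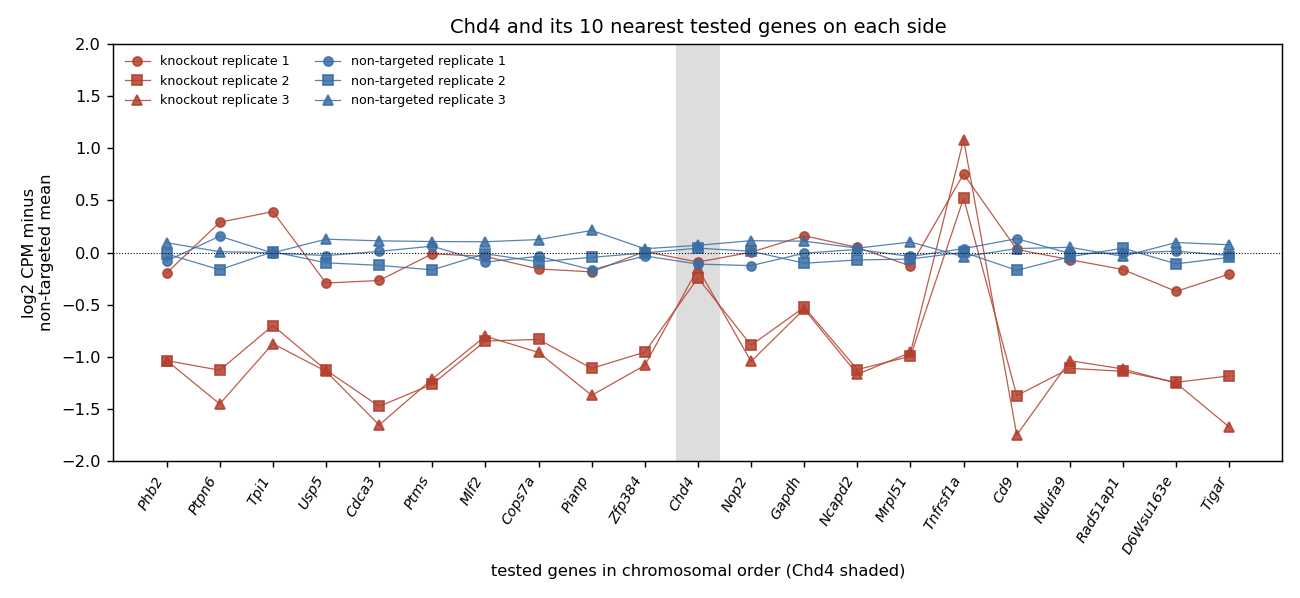
Log2 CPM minus the non-targeted mean (vertical axis) for Chd4 (shaded) and the 10 nearest tested genes above a mean log2 CPM of 4 on each side in chromosomal order, 1 line per library, knockout in red and non-targeted in blue. In KO replicates 2 and 3 Chd4 is at -0.25 and -0.15 while 19 of its 20 neighbours lie lower, down to -1.75. In NT replicate 2 all 20 lie below Chd4 too, down to -0.17.

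The other 9 genes lay among neighbours nearer to the non-targeted mean than those of Chd4 in KO replicates 2 and 3. The medians of their neighbours in the KO clones ranged from -0.17 to 0.19, as large as some members' own values. Smarca4 was at -0.08, -0.05 and -0.09 in KO replicates 1 to 3, where its 20 neighbours had medians of -0.13, -0.14 and -0.17. Dpf2 was at 0.03, -0.06 and -0.25, where its neighbours had medians of -0.06, 0.14 and 0.19. Smarcc1 was at -0.14, -0.40 and -0.41 in KO replicates 1 to 3, where its 20 neighbours had medians of -0.05, 0.09 and 0.08. Mta1 was at 0.04, 0.37 and 0.71, where its 17 neighbours had medians of 0.00, 0.05 and 0.10. Of the Smarcc1 neighbours 1 was lower and 4 were higher in the KO without overlap, and of the Mta1 neighbours 3 were lower and 3 higher. Smarca4, Arid1a and Mta2 each had 6 of 20 neighbours lower in this way, with 1, 1 and 3 higher. Over all tested genes 14.7% were lower and 14.8% higher in this way.

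Most of the 10 proteins have close relatives that take the same place in BAF or NuRD. The other BAF genes include such relatives and further subunits. Of the other 25 BAF genes 23 were tested, 14 with a log2 fold change above 0 and 9 below (median 0.01). EdgeR called 0 of them, with 12 at an unadjusted p under 0.05, beside 24.8% of all tested genes, and 10 had groups that did not overlap, beside 29.5% of all tested genes. DESeq2 called 3 of the 23, beside its 9.12% over all genes. The DESeq2 calls were Arid1b and Arid2, which rose, and Bicral, which fell. Of these only Arid1b is among the fixed relatives of the 10 genes.

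Arid1b, the alternative to Arid1a in canonical BAF, had 78.3, 82.3 and 79.3 CPM in KO clones, against 54.4, 62.1 and 53.9 CPM in the NT clones. All KO clones were well above all NT clones, and the KO clones lay close together. The log2 fold change was 0.49 ± 0.09 (DESeq2 adjusted p = 0.00242; edgeR adjusted p = 0.106). Arid2, which defines the PBAF form, had 261, 271 and 324 CPM in KO clones, against 192, 203 and 177 CPM in the NT clones (0.58 ± 0.10; DESeq2 adjusted p = 0.00126; edgeR adjusted p = 0.106). Bicral, a subunit of non-canonical BAF like Brd9, had 117, 96.6 and 63.3 CPM in KO clones, against 159, 130 and 151 CPM in the NT clones (-0.67 ± 0.21; DESeq2 adjusted p = 0.0335; edgeR adjusted p = 0.134). The 3 DESeq2 calls became 0 without NT replicate 3 and 1 (Arid2) without KO replicate 2 or NT replicate 1. They became 2 (Arid1b and Arid2) without KO replicate 3 or NT replicate 2, and 11 without KO replicate 1. The share of all genes called by DESeq2 with a library left out is not given here. Without KO replicate 1 edgeR called 29.1% of all genes.

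Smarcc2, the relative of Smarcc1 that esBAF largely lacks, had 26.9, 38.6 and 41.9 CPM in KO clones, against 24.7, 24.6 and 25.4 CPM in the NT clones. The groups did not overlap, with KO replicate 1 just above the NT clones (0.52 ± 0.17; edgeR adjusted p = 0.139; DESeq2 adjusted p = 0.0714). Smarca2, the ATPase alternative to Smarca4, was low throughout, with 3.45, 6.54 and 7.05 CPM in KO clones, against 2.18, 4.12 and 2.29 CPM in the NT clones (0.98 ± 0.37; edgeR adjusted p = 0.167). KO replicate 1 lay below NT replicate 2. Fibroblast marker medians were 0.60, 0.83 and 1.91 in KO replicates 1 to 3, and the part of feeder RNA in the Smarca2 and Smarcc2 values was not tested. Dpf1, the neural-type relative of Dpf2, had 32.4, 12.3 and 16.8 CPM in KO clones, against 41.6, 28.9 and 39.3 CPM in the NT clones (-0.83 ± 0.34; edgeR adjusted p = 0.185), and Dpf3 was not tested, with at most 9 reads in a library. Brd7, the PBAF bromodomain protein, had a log2 fold change of -0.06 ± 0.08 (edgeR adjusted p = 0.675).

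**Figure D3:**
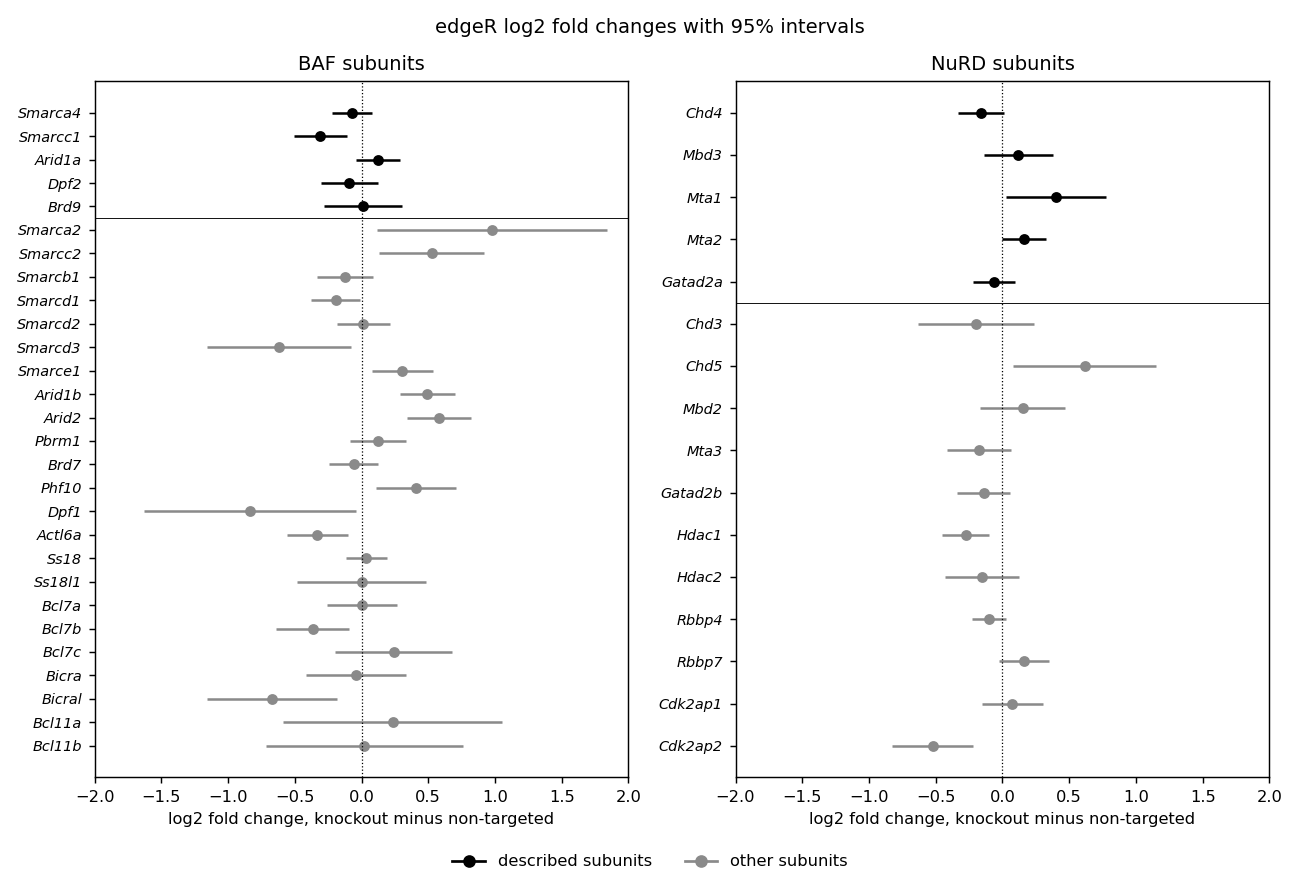
Log2 fold changes (horizontal axis, knockout minus non-targeted) from edgeR with 95% intervals for the described subunits (black) and the other tested subunits (grey) of BAF and NuRD. The black points lie between -0.31 and 0.40, and Arid2 and Arid1b lie at 0.58 and 0.49.

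Of the other 11 NuRD genes, all tested, 4 had a log2 fold change above 0 and 7 below (median -0.14). EdgeR called 0, with 3 of the 11 at an unadjusted p under 0.05, beside 24.8% of all tested genes, and DESeq2 called 1 of the 11, beside 9.12% of all genes. This was Cdk2ap2, a small NuRD-associated protein gene, which fell in DESeq2, with 19.9, 17.1 and 16.3 CPM in KO clones, against 26.8, 26.0 and 24.0 CPM in the NT clones (-0.52 ± 0.13; DESeq2 adjusted p = 0.0185; edgeR adjusted p = 0.112). The call was lost in DESeq2 when any library other than KO replicate 1 was left out. Without KO replicate 1 DESeq2 made 4 calls and so did edgeR, which there called 29.1% of all genes. The share of all genes that DESeq2 called in these settings is not given here. Chd5, a CHD ATPase best known from neurons and testis, had 10.8, 8.19 and 10.8 CPM in KO clones, against 7.75, 4.87 and 6.88 CPM in the NT clones (0.62 ± 0.23; edgeR adjusted p = 0.163). Chd3, Mbd2, Mta3 and Gatad2b, the nearest relatives of Chd4, Mbd3, the MTA genes and Gatad2a, had log2 fold changes of -0.20 ± 0.19, 0.15 ± 0.14, -0.17 ± 0.10 and -0.14 ± 0.09, each with overlapping groups and edgeR adjusted p of 0.532, 0.515, 0.314 and 0.333.

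Per kilobase of the longest coding transcript (GENCODE M21), the described subunit was the more abundant of most pairs in both groups of clones. These folds are ratios of group means. Smarca4 stood 81.1-fold above Smarca2 in KO clones and 169-fold above it in the NT clones. Smarca2 had only 27 to 98 reads per library, and the ratios by library overlapped between the groups. Smarcc1 stood 12.3-fold above Smarcc2 in KO clones and 21.8-fold in the NT clones, and Arid1a 12.2-fold above Arid1b in KO clones and 15.8-fold in the NT clones. Chd4 stood 24.4-fold above Chd3 in KO clones and 23.8-fold in the NT clones, and Mbd3 9.35-fold above Mbd2 in KO clones and 9.54-fold in the NT clones. Chd4 stood 153-fold above Chd5 in the KO clones and 263-fold in the NT clones, and Gatad2a 3.81-fold above Gatad2b in the KO clones and 3.62-fold in the NT clones. Brd9 and Brd7 were near parity, at 0.966 in the KO clones and 0.920 in the NT clones. Dpf2 stood 3.21-fold above Dpf1 in the KO clones and 1.91-fold in the NT clones, though the ratios by library overlapped between the groups. Mta2 stood 2.16-fold above Mta3 in the KO clones and 1.71-fold in the NT clones, and Mta1 was at 1.12 times Mta3 in the KO clones and 0.753 times in the NT clones. Reads in introns were counted too, so these folds depend on the length used: per kilobase of the counted gene, in the NT clones, Mta2 stood 22.2-fold above Mta3, Mbd3 67.1-fold above Mbd2 and Arid1a 51.8-fold above Arid1b. On that scale Smarcc1 stood 6.98-fold above Smarcc2, and Mta1 was above Mta3, at 2.36 times.

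The ratio of a subunit to its relative within a library does not depend on the scaling of that library, and was compared between groups for 12 pairs, a comparison added after the data were seen. The log2 ratio of CPM of Smarcc1 to Smarcc2 was 4.53, 3.75 and 3.62 in KO clones, against 4.79, 4.76 and 4.78 in the NT clones. All KO clones were lower, replicate 1 by the least, and the mean difference was -0.81. That of Arid1a to Arid1b was 3.12, 3.15 and 3.14 in KO clones, against 3.52, 3.32 and 3.68 in the NT clones, a difference of -0.37 that was nearly equal in the 3 KO clones. That of Mta1 to Mta3 was -0.18, 0.11 and 0.73 in KO clones, against -0.34, -0.19 and -0.45 in the NT clones. Each of these had an exact two-sided permutation p of 0.1 (n = 3 each), the smallest that 3 against 3 clones allow, and 0.24 adjusted over the 12 pairs. Mta2 to Mta3 (difference 0.34) and Chd4 to Chd5 (difference -0.78) also had groups that did not overlap, with the same exact p. Smarcc1 and Smarcc2 each had groups apart as single genes, in opposite directions, so the p of their ratio was fixed in advance. Of Arid1a and Arid1b, only Arid1b had groups apart as a single gene. The other 7 pairs overlapped, Smarca4 to Smarca2 and Dpf2 to Dpf1 among them. Of single tested genes 29.5% had groups that did not overlap, and no such share was computed for ratios of other gene pairs.

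**Figure D4:**
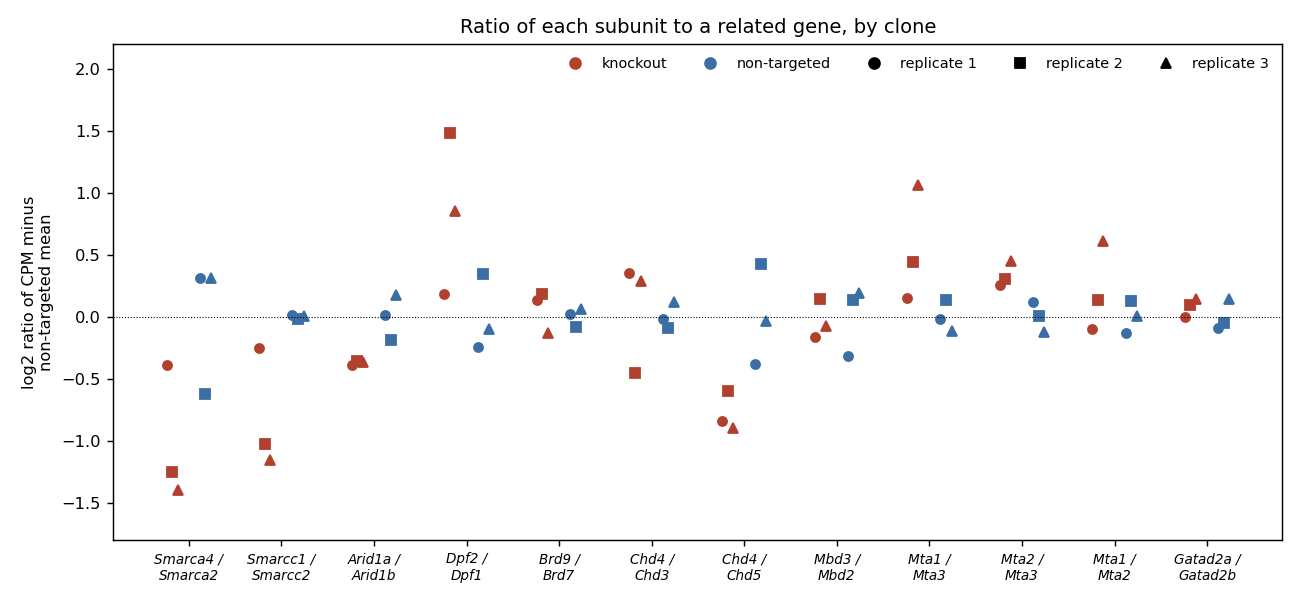
Log2 ratio of the CPM of each described subunit to a related gene, minus the non-targeted mean of that ratio (vertical axis), for 12 pairs, knockout in red at the left of each pair and non-targeted in blue at the right; shapes mark replicates. Smarcc1 over Smarcc2 is lower in all 3 KO clones by a mean of 0.81, least in replicate 1, and Arid1a over Arid1b by nearly the same amount in each.

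Remodellers of other families served as a comparison within the same libraries. Of 32 tested ISWI, CHD and INO80 family genes, 12 had a log2 fold change above 0 and 20 below (median -0.06). Their median absolute change was 0.15, beside 0.12 in the 10 subunits, 0.24 in the other BAF genes and 0.16 in the other NuRD genes. EdgeR called 0, with 7 of the 32 at an unadjusted p under 0.05, beside 24.8% of all tested genes, and DESeq2 called 3 of the 32, beside 9.12% of all genes. Chd7, a CHD remodeller that binds enhancers, rose in DESeq2, with 179 ± 24.1 CPM in KO clones and 118 ± 13.9 CPM in the NT clones (SD, n = 3 each; adjusted p = 0.00515). Ruvbl1 and Ruvbl2, the paired AAA ATPases of INO80 and TIP60, fell in DESeq2 by 0.31 and 0.33 on the log2 scale (adjusted p = 0.0360 and 0.0478). The 3 calls became 0 in DESeq2 without KO replicate 2 or 3 or NT replicate 1 or 3, and 1 without NT replicate 2. They became 14 without KO replicate 1, where edgeR called 12 of the 32 and 29.1% of all genes. The share of all genes that DESeq2 called in these settings is not given here.

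The KO clones did not deviate equally. Without KO replicate 1, edgeR called Smarcc1 lower and Mta1 higher among the 10 subunits, and 11 of the other BAF genes, 7 higher and 4 lower, where it called 29.1% of all genes. The 7 were Smarca2, Smarcc2, Smarce1, Arid1b, Arid2, Phf10 and Bcl7c, and the 4 were Dpf1, Actl6a, Bcl7b and Bicral. Among the other NuRD genes it called Rbbp7 higher and the deacetylase genes Hdac1 and Hdac2 and Cdk2ap2 lower. These are values of KO replicates 2 and 3 against 3 NT clones. They are the clones with the lower stretch of chromosome 6 and the lower medians of the pluripotent cell markers. Of these markers Nanog, itself on chromosome 6, was at -0.81 and -2.15 in KO replicates 2 and 3. Lin28a, at 0.05 and 0.37, was not lower.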

How the data were processed

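RNA of 6 clonal iPSC lines was sequenced from polyA RNA with a stranded kit, per the labels. The authors deposited raw read counts per gene; the submitters' processing notes list mm10 and HISAT2 2.1.0, as well as DESeq2 1.18.1 and version 1.5.3 of featureCounts. Per the file headers counting used featureCounts 1.6.2, reverse-stranded, over whole gene bodies of GENCODE M15 (GRCm38.p5), so intronic reads are included. No option for multi-mapping or multiply assigned reads was set, so such reads were left out; same-strand genes overlap at most 0.575% of the length of any of the 10 genes. Library totals were 11937909 to 16189554.

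Counts were filtered with filterByExpr (minimum count 10, minimum total 15; 14664 genes tested), scaled with TMM factors and compared with edgeR 4.0.16 (quasi-likelihood, group as the only term, Benjamini-Hochberg over all tested genes); DESeq2 1.42.0 and limma 3.58.1 (voom) under R 4.3.3 were alternatives. SE was taken from the fold change and F statistic, and 95% intervals from the test's t distribution. Log2 CPM used a prior count of 2. The fits were tested on simulated data.

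The members and lists were chosen with earlier results of these data known. The text names all 10 members, their fixed relatives, Tet1 and the 3 nearest neighbours of Chd4 on each side. It also names every gene of the other BAF, NuRD and remodeller lists called by edgeR or DESeq2. Smarce1, Phf10, Bcl7b, Bcl7c, Actl6a, Rbbp7, Hdac1, Hdac2, Tnfrsf1a and the markers Fap, Nanog and Lin28a are named outside that rule, after their values were seen. The pair ratios, their permutation test and DESeq2 with libraries left out were added after seeing the data. Promoter sequences are from RefSeq, whose GRCm38.p6 shares its chromosome coordinates with the authors' build.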

Additional observations from a re-analysis of the deposited data

How the results depend on the processing

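The log2 fold changes of the 10 subunits kept their sign and their side of the threshold in 122 of 130 values. Brd9, at 0.01, ranged from -0.077 to 0.13 over single libraries left out and was below 0 in 4 of the 6. With knockout replicates 2 and 3 both left out, 1 knockout library faced 3 non-targeted ones and was assumed to vary like them, so the 17 genes called there rest on the spread of the non-targeted clones alone. Dpf2 was then at 0.029, Mbd3 at -0.088, Mta1 at 0.043, Smarcc1 at -0.14 and the median of the other NuRD genes at -0.055. With single libraries left out, edgeR called 0 to 2 of the 10 subunits, 0 to 4404 of all genes, 0 to 11 other BAF, 0 to 4 other NuRD and 0 to 12 ISWI, CHD and INO80 genes, every count above 0 coming without knockout replicate 1. The medians then ranged from -0.075 to 0.022 (the 10 subunits), from 0.0083 to 0.045 (other BAF), from -0.13 to -0.085 (other NuRD) and from -0.093 to -0.042 (ISWI, CHD and INO80). DESeq2 called 1247 of all genes, 3 other BAF, 1 other NuRD and 3 ISWI, CHD and INO80 genes. With single libraries left out, a choice made after seeing the data, it called 0 to 2 of the 10 subunits. For the other lists, in the same order, it then called 0 to 11, 0 to 4 and 0 to 14. The highest of each came without knockout replicate 1, where edgeR called 29.1% of all genes. The DESeq2 share of all genes with a library left out is not given here. With no filter on low counts edgeR called 159 genes, 1 other BAF gene (Arid2; list median -0.0075) and 1 of the ISWI, CHD and INO80 genes (Chd7). Limma voom called 1 gene. With the replicate block edgeR called 3 genes and none of the listed subunits (Smarcc1 adjusted p = 0.0935). Same-numbered libraries had deviations correlated at 0.46, 0.11 and -0.02, and differently numbered ones at values from -0.46 to 0.46. The numbers were not treated as pairs in the main fit. RLE factors and TMM without chromosome 6 changed none of these counts. Each of the 10 subunits had at least 619 reads in every library.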
